A study of Mus musculus with 36 samples.

Results

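Transcripts of 6 genes were followed in mouse natural killer (NK) cells: Ncr1, which encodes the activating receptor NKp46, Fcgr3, which encodes the IgG receptor CD16, and the signalling adaptors Fcer1g (FcRgamma), Cd247 (CD3zeta), Tyrobp (DAP12) and Hcst (DAP10). They were taken by symbol, 1 row per gene in each of 4 tables of expression values that together list 56925 gene identifiers. The rule itself uses gene symbols and no measured value. All 6 passed the filter on low values (a mean of at least 1 TPM) in each of the 3 tables in which groups were compared.

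The study profiled NK cells in functional and desensitized states, in 36 RNA-seq libraries forming 12 groups of 3. The subset table holds mature (CD27-CD11b+) splenic NK cells from wild-type C57BL/6 mice (WT) and B2m-/- mice (KO, which carry very little surface MHC class I), sorted as Ly49C+Ly49I+NKG2A+ (TP), as Ly49I+ but Ly49C-NKG2A- (SP), or as negative for these receptors (TN). In the ionomycin table, WT splenocytes received vehicle or the calcium ionophore ionomycin, and NK cells were purified from them after 22 h. In the antibody table, WT splenocytes spent 48 h in medium or on plates coated with anti-NKp46 together with either anti-NKG2D or anti-DNAM-1. The tumour table holds CD27-CD11b+ NK cells from B6 mice, taken from subcutaneous tumours of B2m-/- MC38 colon carcinoma cells after 10 days, with no comparison group in that table. In both culture tables the design text has splenocytes treated before NK cells were isolated, so other splenic cells were exposed as well. The titles of the tumour samples do not explain the terms B2MKO and SP that their column names carry.

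NKp46 and CD16 have short tails and no signalling motif of their own. At the cell surface they depend on adaptors such as FcRgamma. The tails of FcRgamma and CD3zeta carry the immunoreceptor tyrosine-based activation motif (ITAM), a pair of tyrosines that Src family kinases phosphorylate so that Syk or ZAP-70 can bind. DAP12 is an ITAM adaptor used by receptors such as Ly49D, Ly49H and NKG2C. Receptors that use DAP10 include NKG2D, and DAP10 carries a YxxM motif that recruits phosphatidylinositol 3-kinase. DNAM-1 signals without these adaptors.

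The motifs that set the 4 adaptors apart from the 2 receptors were read from the coding sequences of the GENCODE vM21 transcripts (GRCm38), using the open reading frame with the most ITAMs and then the longest. An ITAM was taken as a tyrosine, 2 residues and a leucine or isoleucine, then 6 to 12 residues, and the same pattern again. One ITAM was found in Fcer1g, 3 in Cd247 and 1 in Tyrobp, a single YxxM in Hcst, and neither motif in Ncr1 or Fcgr3. The codons of the fixed residues (tyrosine with leucine or isoleucine, and with methionine in Hcst) are in capitals, 5′ to 3′ on the coding strand.
Fcer1g ITAM: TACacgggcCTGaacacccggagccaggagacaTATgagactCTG
Cd247 first ITAM: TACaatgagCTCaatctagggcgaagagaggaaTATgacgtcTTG
Cd247 second ITAM: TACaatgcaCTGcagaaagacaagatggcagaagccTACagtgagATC
Cd247 last ITAM: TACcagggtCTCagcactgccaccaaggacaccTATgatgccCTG
Tyrobp ITAM: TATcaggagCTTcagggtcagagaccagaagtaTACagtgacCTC
Hcst YxxM: TACatcaacATG
The spacing between the paired tyrosine motifs was the same in 4 of these 5 ITAMs, which span 45 bases. The second ITAM of Cd247 spans 48 bases.

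Promoters were taken from RefSeq (assembly GRCm38.p6, whereas the deposited values were made on GRCm39), as windows of 300 bases from 250 before to 50 after a start site, and were found for 5 members, all but Tyrobp. They were searched on both strands for RUNX (TGTGGT), T-box (GGTGTGA), ETS (CCGGAAG) and NFAT (GGAAAA) letters, none of which overlapped in these windows. Shown 5′ to 3′, with matches in capitals, are the 250 bases before the start site of Ncr1 and Fcer1g, the 2 members called after ionomycin whose window held a match.
Ncr1, GRCm38.p6 chr7:4337465-4337714, plus strand: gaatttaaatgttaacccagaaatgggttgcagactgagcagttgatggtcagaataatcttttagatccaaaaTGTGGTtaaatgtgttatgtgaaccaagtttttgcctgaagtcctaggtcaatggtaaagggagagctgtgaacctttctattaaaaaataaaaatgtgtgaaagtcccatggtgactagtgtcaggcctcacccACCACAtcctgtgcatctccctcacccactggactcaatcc
Fcer1g, GRCm38.p6 chr1:171234350-171234599, minus strand: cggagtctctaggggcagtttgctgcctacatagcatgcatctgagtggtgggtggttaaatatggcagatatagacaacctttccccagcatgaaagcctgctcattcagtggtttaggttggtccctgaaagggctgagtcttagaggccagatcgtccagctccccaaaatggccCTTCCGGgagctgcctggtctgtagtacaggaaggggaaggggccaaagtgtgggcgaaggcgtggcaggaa
Ncr1 held the RUNX letters at -176 (forward) and -41 (reverse), and Fcer1g held ETS letters at -72 and RUNX letters 9 bases after its start site. The RUNX letters occur in 16.8% of 32851 mouse promoter windows and the ETS letters in 8.86%. Fcgr3 held an NFAT match at -148, as did 23.4% of windows, and no window of the 5 held the T-box letters, which 3.98% of all windows do. A match describes these letters and does not show a bound site.

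For 2 members the level itself is uncertain. Of all 50-base stretches of Fcgr3 transcripts, 9.58% also occur in Fcgr2b, the gene of the inhibitory IgG receptor. For Cd247, 53% lie in the overlapping Pou2f1 gene on the opposite strand, and whether the counting used strand is not given in the sources used here. The other 4 members shared no such stretch with another gene. In the RefSeq gene order Tyrobp and Hcst are direct neighbours on chromosome 7, and Fcgr3 lies beside Fcgr4 on chromosome 1.

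The values are TPM, reads per gene length scaled to a fixed total per library, so levels can be set side by side between genes. Sequencing depth is unknown from TPM. Libraries listed 12290 to 18096 genes above 0, and no pair held identical values. Values of a subset library summed to 934292 to 948786, so that table holds fewer genes than the TPM were scaled over. The 8 NK cell marker genes summed to 16204 to 19622 TPM in the subset libraries, and to 5540 to 13242, 9980 to 11662 and 9744 to 10374 TPM in the ionomycin, antibody and tumour tables. Differences were tested with limma on log2(TPM + 1) over all genes of a table (12018, 14372 and 13689 genes), two-sided, and a gene was called at a Benjamini-Hochberg adjusted p under 0.05. Differences below are on this log2 scale, errors are SD over n = 3, and with 3 libraries a group an exact permutation test of 1 value cannot give a p under 0.1. Labels name biological replicates without saying whether each is a separate mouse, so p-values measure the spread between these samples. In bulk RNA, fewer cells of a type and less RNA per cell cannot be told apart.

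In freshly sorted subsets most of the order of the 6 members was the same in every library. Tyrobp was the highest of the 6 and Fcgr3 the lowest in 18 of 18 libraries, and Ncr1 was above Fcer1g in all 18. Tyrobp lay between 2140 and 2811 TPM and ranked 16 to 22 among the genes of its library. Ncr1 lay between 1607 and 2416 TPM (rank 21 to 38) and Fcer1g between 1315 and 1756 TPM (rank 33 to 75). So 3 of the 6 members were among the most abundant mRNAs of these cells. Hcst, at 238 to 416 TPM, Cd247, at 228 to 289 TPM, and Fcgr3, at 91.9 to 143 TPM, were about an order of magnitude lower, and Hcst was above Cd247 in 15 of 18 libraries. Ncr1 mRNA thus exceeded Fcgr3 mRNA 14.2 to 20.9 times within single libraries.

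**Figure D1:**
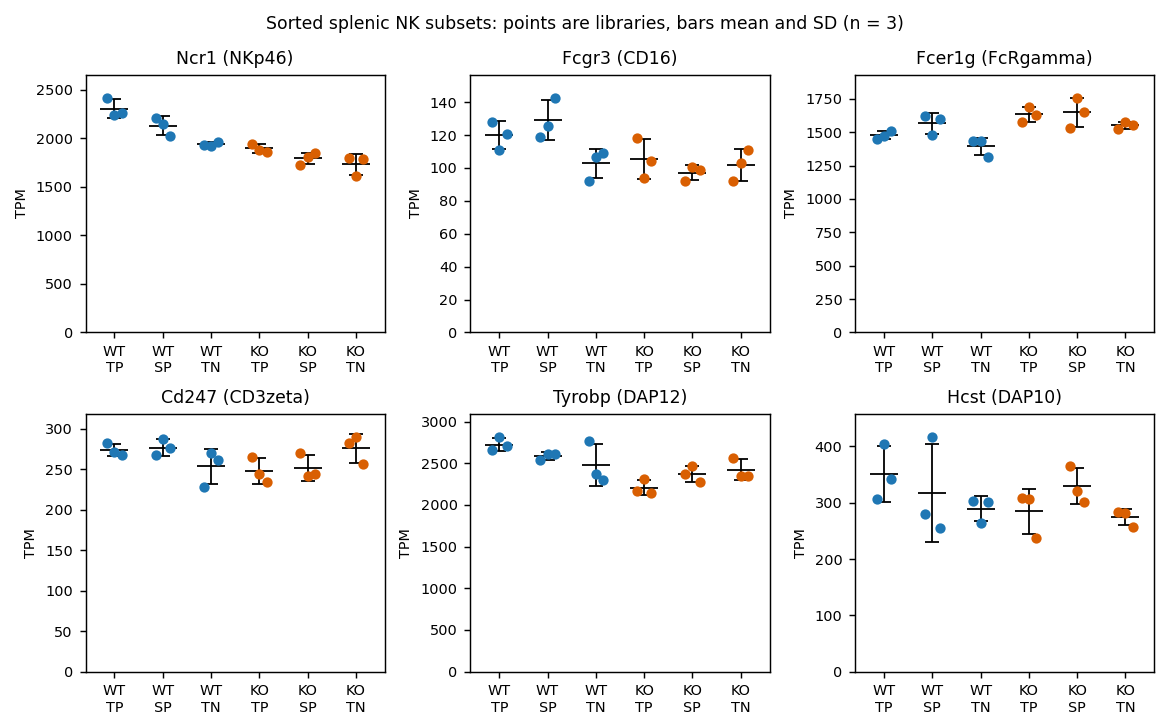
TPM of each member (linear axes from 0) in the 6 sorted splenic groups, WT in blue and KO in orange, with 1 point per library and bars for mean and SD (n = 3). Ncr1 steps down from WT TP to WT TN and lies lower in KO, Tyrobp is lowest in KO TP, and Fcer1g is higher in KO TP and KO TN than in the matching WT groups.

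Among the receptors, Ncr1 (ENSMUSG00000062524) showed the clearest steps. Its TPM in WT TP libraries were 2416, 2242 and 2259, in WT SP libraries 2213, 2150 and 2023, and in WT TN libraries 1930, 1924 and 1963. Among KO libraries, the TP values were 1946, 1877 and 1863, the SP values 1728, 1803 and 1846 and the TN values 1796, 1607 and 1791. The 3 WT groups did not overlap, nor did any KO group overlap the WT group of the same subset, while KO TP overlapped WT TN and KO SP overlapped KO TN. From WT TP to WT TN cells Ncr1 fell by 0.25 (SE 0.056, adjusted p 0.0333 by limma), a drop from 2306 ± 95.6 to 1939 ± 20.9 TPM. The 8 NK cell markers also summed to less in WT TN (16204 to 16855 TPM) than in WT TP libraries (18245 to 19199 TPM). Most of that difference lay in Gzma, which averaged 7987 TPM in WT TN and 9967 TPM in WT TP cells. Among single markers Gzma fell by 0.32 and Prf1 fell by 0.33, both genes of cytotoxic granules, while Eomes rose by 0.73 and Cd27, which the sort selects against, rose by 0.97. The part of these in the Ncr1 result was not tested. WT SP cells lay between them, at -0.12 from TP (adjusted p 0.650) and 0.13 above TN (TN minus SP -0.13, adjusted p 0.347). Ncr1 was the 1 member called of 6 between WT TN and TP cells, where 1.31% of all genes were called. Ncr1, Fcgr3, Fcer1g and Hcst had non-overlapping lower values in that comparison, as had 7.95% of all genes. From WT TP to SP, Ncr1 and Tyrobp separated to lower values, as did 5.37% of all genes. From WT SP to TN, Ncr1, Fcgr3 and Fcer1g did, as did 6.11% of all genes. By limma 0 members were called between WT SP and TP (0.191% of all genes, 0 members at an unadjusted p under 0.05) and between WT TN and SP cells (0.383%, 3 members unadjusted). Of the 12018 genes tested, 927 and 1452 had an unadjusted p under 0.05 in these comparisons, in that order. Within KO mice 0 members were called between TN and TP (0.524%, 1 member unadjusted), SP and TP (0.2%, 0 unadjusted) or TN and SP cells (0.0416%, 0 unadjusted). Among all genes, 773, 352 and 333 had an unadjusted p under 0.05 there, in the same order. In KO mice the TN minus TP difference was -0.13 (adjusted p 0.702; -0.28 and called with quantile normalization, adjusted p 0.0303), and the interaction with genotype was 0.12 (95% interval -0.05 to 0.28, adjusted p 0.863). That interaction was called for 0 members (0.025% of all genes, 2 members unadjusted), and the one for SP minus TP also for 0 (0.0166%, 0 unadjusted). Over all genes, 754 and 530 had an unadjusted p under 0.05 for these interactions, in that order.

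Ncr1 was lower in KO than in WT cells of the same subset. It fell by 0.28 in TP cells (SE 0.056, adjusted p 0.0125), to 1895 ± 44.3 TPM, and by 0.25 in SP cells (adjusted p 0.0350), from 2129 ± 96.6 to 1792 ± 59.9 TPM. In TN cells the difference was -0.16 (adjusted p 0.262), with 1731 ± 108 against 1939 TPM. These genotype calls depended on the normalization. Quantile normalization forces every library onto the same distribution of values. With it the differences were -0.10 in TP and -0.13 in SP cells and were not called. Both calls were kept with median-of-ratios rescaling, which divides each library by 1 factor. The call in SP cells was kept without WT SP replicate 3 and lost without any 1 of the other 5 libraries, and that between WT TN and TP cells was lost without any 1 of its 6. In TP cells it was lost without KO TP replicate 2 or 3 or WT TP replicate 1 (adjusted p 0.0508, 0.0624 and 0.0746).

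Fcgr3 (ENSMUSG00000059498) had another order of groups than Ncr1. Its mean was highest in WT SP cells, at 119, 126 and 143 TPM, and lowest in KO SP cells, with libraries at 92.1, 101 and 98.5 TPM, and those groups did not overlap. The difference of -0.40 (SE 0.11, 95% interval -0.64 to -0.16) had an unadjusted p of 0.00259 and was not called over all genes (adjusted p 0.108). In the other 4 groups Fcgr3 lay between 91.9 and 128 TPM, and neighbouring groups in the order of means overlapped throughout. WT TN cells also lay under WT SP cells without overlap, as did 6.11% of all genes. That difference was -0.33 and not called (unadjusted p 0.0112, adjusted p 0.245 by limma). Fcgr2b, with which Fcgr3 shares stretches, lay between 183 and 294 TPM in the subset libraries, and Fcgr4, which encodes another activating IgG receptor, was listed at 0 in all 18.

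Of the adaptors, Tyrobp (ENSMUSG00000030579) was the 1 called between genotypes. WT TP libraries held 2656, 2811 and 2706 TPM of it, and KO TP libraries 2171, 2310 and 2140 TPM, without overlap. It fell by 0.30 in KO TP cells (SE 0.065, adjusted p 0.0214), from 2724 ± 79.1 to 2207 ± 90.4 TPM. The difference was -0.13 in SP cells (adjusted p 0.469; 2371 ± 96.9 against 2587 ± 46.5 TPM, no overlap) and -0.03 in TN cells (adjusted p 0.928). The interaction of genotype with TN minus TP was 0.27 (95% interval 0.08 to 0.47, unadjusted p 0.00832) and was not called over all genes (adjusted p 0.643), so no difference between subsets was established. With quantile normalization the TP difference was -0.14 and not called, while median-of-ratios rescaling kept the call. The call was also lost without any 1 library of the comparison other than KO TP replicate 2.

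With Ncr1 and Tyrobp, 2 of 6 members were called lower in KO TP cells, where 1.59% of all genes were called and 0.607% called lower. Groups did not overlap for 3 members that were lower (Ncr1, Tyrobp and Cd247; 7.14% of all genes) and 1 that was higher. The median over the 6 members was -0.24, against 0.04 over all genes tested. In SP cells 1 of 6 was called (1.35% of all genes) and 3 were lower without overlap (Ncr1, Fcgr3 and Tyrobp; 7.78% of all genes), with a member median of -0.13 against 0.03, and in TN cells 0 of 6 (0.716% of all genes), with -0.02 against 0.02. At an unadjusted p under 0.05, limma gave 2 members in TN cells, Ncr1 lower and Fcer1g higher, among 1263 of all genes, and Ncr1 was lower without overlap there, as were 5.76% of all genes. KO TP libraries also carried transcripts of other cells: the 4 plasma cell markers summed to 223 to 465 TPM and the 7 neutrophil markers to 61.8 to 221 TPM, against at most 51.1 and 5.85 TPM in the other 15 libraries. Macrophage and monocyte markers summed to 31.7 to 62.4 TPM, against at most 25.7 TPM in the other 15. The T cell marker Cd3g was called higher in KO TP than WT TP cells (9.49 against 1.22 TPM, adjusted p 0.0184 by limma). T cell marker sums of KO TP (210 to 218 TPM) lay within those of WT TP (201 to 242 TPM). All 3 libraries of the group were affected, so no comparison without them could be made, and the part of these transcripts in the TP results was not tested. The KO SP libraries, in which Ncr1 was also called lower, had plasma cell sums of 1.37 to 11.2 and neutrophil sums of 0 to 5.85 TPM. Their macrophage and monocyte sums were 7.14 to 10.5 TPM. Handling stress markers were higher in KO than in WT libraries of both subsets without overlap, at 32.7 to 76.3 against 14.9 to 18.4 TPM in TP and 30.8 to 62.0 against 22.7 to 24.6 TPM in SP cells, and their part in the genotype results was not tested.

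Fcer1g (ENSMUSG00000058715) lay on the other side. KO TP libraries were at 1578, 1691 and 1631 TPM and WT TP libraries at 1447, 1474 and 1512 TPM, and the TN groups were at 1524, 1575 and 1551 in KO and 1432, 1430 and 1315 in WT. In both subsets all 3 KO libraries were above all 3 WT libraries, as were 11.1% of all genes in TP and 7.95% in TN cells. The differences of 0.14 (adjusted p 0.334) in TP and 0.16 (adjusted p 0.341) in TN cells were not called, and in SP cells the value was 0.07 with overlap. Within the ITAM adaptors the KO TP libraries were therefore ordered oppositely for Fcer1g and Tyrobp.

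Cd247 (ENSMUSG00000005763) and Hcst (ENSMUSG00000064109) were called in no subset or genotype comparison. Group means of Cd247 ran only from 248 ± 16.1 (KO TP) to 277 ± 10.1 TPM (WT SP), and each neighbouring pair in the order overlapped. Hcst ran from 275 ± 15.0 (KO TN) to 351 ± 49.0 TPM (WT TP). The largest coefficient of variation of any member in a subset group was that of Hcst in WT SP cells, 27.3%, where 1 library was at 416 TPM and the others at 280 and 256 TPM. For Hcst the interval of the TP genotype difference was accordingly wide, from -0.63 to 0.03.

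**Figure D2:**
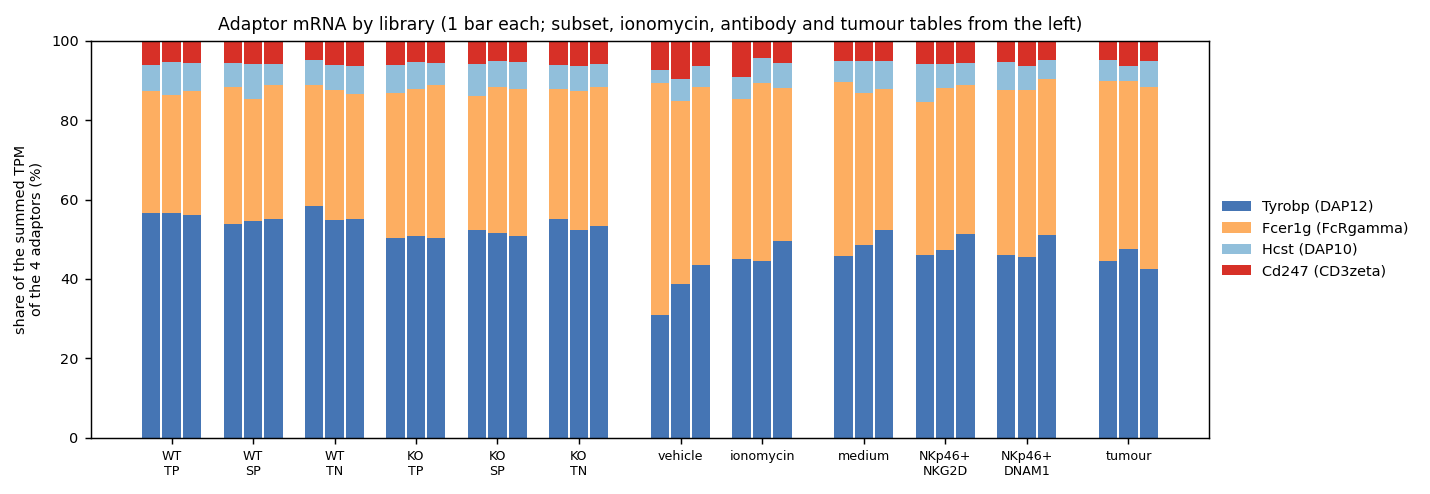
Share (%) of the summed TPM of the 4 adaptors held by each, 1 bar per library, grouped by table and group. Tyrobp holds more than Fcer1g in every subset library, its share is lower in KO TP (about 50.5%) than in WT TP (56.5%), and vehicle replicate 1 stands apart with the lowest Tyrobp share, 30.9%.

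The balance of the adaptors was expressed as each gene's share of their summed TPM. In WT TP cells the 4 adaptors summed to 4826 ± 134 TPM, of which Tyrobp held 56.5% ± 0.344, Fcer1g 30.6% ± 0.815, Hcst 7.26% ± 0.813 and Cd247 5.67% ± 0.300. In KO TP cells Tyrobp held 50.5% ± 0.262 and Fcer1g 37.4% ± 0.996. The ranges did not overlap, with 36.5 to 38.5% Fcer1g in KO TP and 29.7 to 31.3% in WT TP libraries. A ratio of members within a library does not depend on how that library was scaled. The ratio of Fcer1g to Cd247 was 6.60 in KO TP and 5.40 in WT TP cells, again without overlap. That of Fcgr3 to Fcer1g was 0.0642 in KO TP and 0.0811 in WT TP cells, and 0.0590 in KO SP and 0.0823 in WT SP cells. In an exact two-sided permutation test these reached p = 0.1, the smallest possible, and over the 28 ratio tests made no adjusted p was under 0.933.

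Some genes that act with the members also changed between subsets. Of 16 receptors coupled to the same adaptors 8 were tested, and 3 were called higher in WT TN than TP cells: Klra4 (Ly49D) by 2.08, Klrc2 (NKG2C) by 0.96 and Klra8 (Ly49H) by 0.87, all partners of DAP12. Their reads can be shared within the Klra and Klrc families, which makes single levels uncertain. The median of the 8 was 0.21, against -0.01 over all genes, of which 1.31% were called. The same 3 were called higher in WT SP than TP cells (0.191% of all genes called) and in KO TN than TP cells (0.524%). In KO SP against TP cells Klrc2 and Klra4 were called higher (0.2%). Between TN and SP cells 0 of the 8 were called in either genotype. Of 18 proximal signalling genes 2 were called higher in WT TN than TP cells, Pik3r1, a phosphatidylinositol 3-kinase subunit, by 0.43 and the Src family kinase Fyn by 0.27. Of 10 negative regulators Ptpn6, which encodes the phosphatase SHP-1, rose by 1.02. Among 8 other activating or adhesion receptors Cd226 fell by 2.36, and among 10 NK transcription factors Id2 fell by 0.93 and Eomes rose by 0.73.

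Between genotypes the same lists gave 4 calls in TP cells, Ptpn6 (1.23 higher in KO), Pik3r1 (0.75 higher), Klrb1a (0.54 higher), which encodes a receptor of the NK1.1 family, and Slamf7 (0.85 lower, log2 change -0.85). In SP cells Ptpn6 rose by 1.15, Pik3r1 by 0.59 and Cd2 by 0.30, while Slamf7 fell by 0.85 and Ubash3b by 0.49. In TN cells 0 genes of the 5 lists were called by limma. Over all genes, 1.59% (TP), 1.35% (SP) and 0.716% (TN) were called. Neither Syk nor Zap70, the kinases that bind phosphorylated ITAMs, was among the called genes of these subset comparisons.

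Ionomycin for 22 h was followed by lower levels of most members. Of the 6, 4 were called lower (1.25% of all genes were called lower, and 2.91% in either direction), and 5 had non-overlapping groups, lower in each case, as had 9.57% of all genes. The member median was -1.48, against -0.0044 over all genes. The summed TPM of the 4 adaptors went from 2157 ± 76.4 with vehicle to 952 ± 96.5 with ionomycin.

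**Figure D3:**
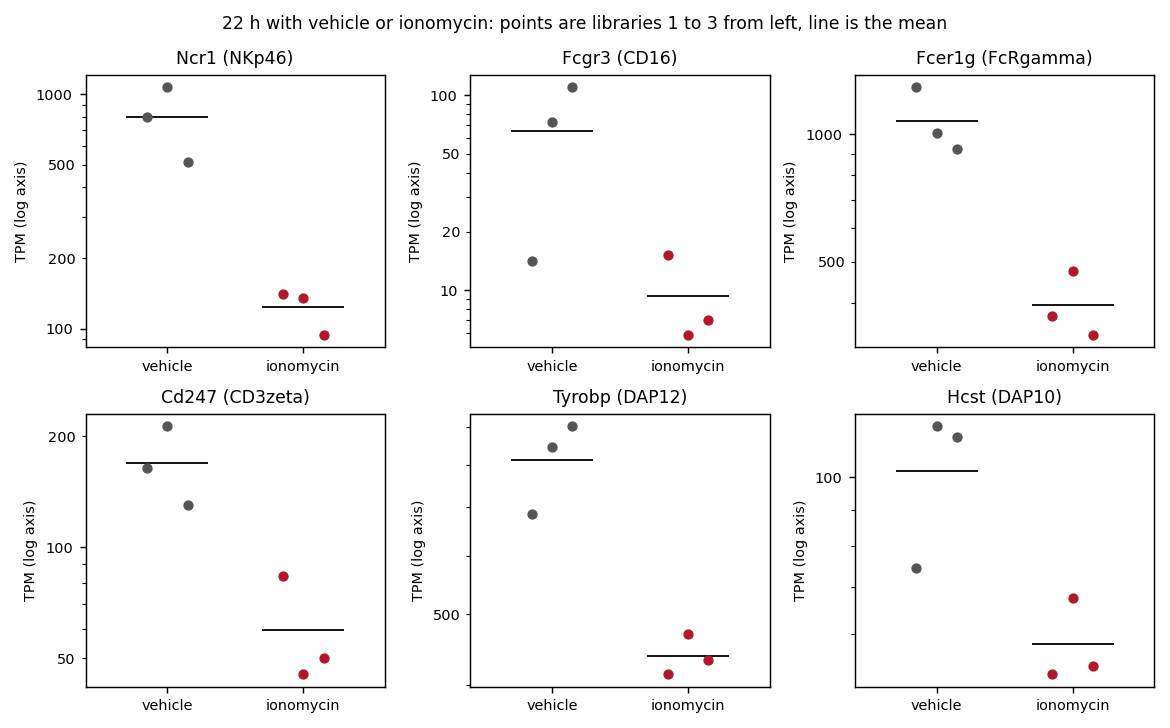
TPM of each member (log axes) after 22 h with vehicle (grey) or ionomycin (red), 1 point per library in the order of replicates 1 to 3, with a line at the mean. The groups are separate for 5 members, and for Fcgr3 vehicle replicate 1 (14.2 TPM) lies within the ionomycin range of 5.89 to 15.2 TPM.

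Vehicle libraries held 800, 1073 and 512 TPM of Ncr1, and ionomycin libraries 141, 135 and 94.0 TPM. It fell by 2.64 (SE 0.299, 95% interval -3.32 to -1.96, adjusted p 0.00450), or 6.45 times between means, and its rank among genes above 0 went from 114 to 274 with vehicle to 1152 to 2042 with ionomycin. For Fcgr3 the vehicle values were 14.2, 72.6 and 110 TPM and the ionomycin values 15.2, 5.89 and 7.05 TPM. Its difference of -2.37 (SE 0.721) was nearly as large as that of Ncr1 but not called (adjusted p 0.144). Vehicle replicate 1 lay within the ionomycin range, and the same library was low for Fcgr2b (4.51 TPM, against 50.6 and 117) and for Itgam, the CD11b gene (66.4 TPM, against 182 and 239). Without it the Fcgr3 difference was -3.23 and still not called (adjusted p 0.0504).

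All 4 adaptors were lower with ionomycin, and 3 were called. Fcer1g, at 1293, 1006 and 925 TPM in vehicle and 372, 477 and 336 TPM in ionomycin libraries, fell by 1.44 (SE 0.216, adjusted p 0.0124). Cd247, at 163, 213 and 130 TPM with vehicle, was at 83.7, 45.2 and 49.9 TPM with ionomycin and fell by 1.51 (SE 0.307, adjusted p 0.0384). Tyrobp went from 686, 846 and 902 TPM to 414, 470 and 433 TPM and fell by 0.88 (SE 0.187, adjusted p 0.0457). For these 3 genes every ionomycin library lay under every vehicle library. Hcst, at 74.3, 118 and 114 TPM with vehicle and 52.6, 67.5 and 54.1 TPM with ionomycin, also did not overlap, and its difference of -0.78 was not called (adjusted p 0.203). The intervals of Fcer1g (-1.94 to -0.95) and Tyrobp (-1.30 to -0.45) overlapped, and whether the 2 falls differ was not tested.

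The ionomycin calls depended on having 3 libraries a group. The calls of all 4 genes were lost without any 1 of the ionomycin libraries or without vehicle replicate 2, although the differences stayed negative (Ncr1 from -2.92 to -2.39 over all alternatives). Without vehicle replicate 3 Ncr1 and Fcer1g were called, and without vehicle replicate 1 Ncr1, Fcer1g and Tyrobp, so the Cd247 call was lost without any 1 of the 6 libraries. Both libraries numbered 3 carried neutrophil transcripts, with marker sums of 377 and 121 TPM for vehicle and ionomycin, against at most 2.19 TPM in the other 4. Without both, Ncr1 was at -2.74, Fcer1g at -1.44, Cd247 at -1.58 and Tyrobp at -0.79, and no member was called (adjusted p 0.171 to 0.265 for these 4). The 8 NK cell markers summed to 7130 to 13242 TPM with vehicle and 5540 to 7092 TPM with ionomycin. Most of that difference lay in Gzma, which averaged 5109 TPM with vehicle and 1076 TPM with ionomycin. Of single markers Gzma fell by 2.21 and Itga2 fell by 2.02, while Cd27 rose by 2.09, and the part of these in the members' differences was not tested.

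The share of Tyrobp among the adaptors was 37.8% ± 6.38 with vehicle and 46.3% ± 2.86 with ionomycin, and that of Fcer1g 49.7% ± 7.53 and 41.3% ± 3.34. Vehicle replicate 1 had the highest Fcer1g share, 58.3%. Ratios between members overlapped between the groups for all 4 pairs tested, and the smallest exact permutation p was 0.5.

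Downstream genes changed in both directions with ionomycin. Of 18 proximal signalling genes 6 were called: Pik3r1 rose by 2.33 and Zap70 by 1.95, while Plcg2, a phospholipase, fell by 1.75 and Syk by 1.57 (Vav1 and Lat2 were also lower). The 2 kinases that dock on the ITAMs shown above thus went in opposite directions, with Syk at 36.3 against 110 TPM and Zap70 at 760 against 198 TPM for ionomycin and vehicle means. Of 10 negative regulators, Ubash3b rose by 3.35, Cblb, an E3 ubiquitin ligase, by 1.54, and Ubash3a fell by 4.06. Among the 8 tested receptors that use the adaptors 0 were called, with a median of -0.54 and all 8 differences negative, where 50.3% of all genes were negative. Of the remaining lists Cd160 rose by 5.15, Cd244a fell by 2.45 and the transcription factor Runx3 fell by 1.98.

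**Figure D4:**
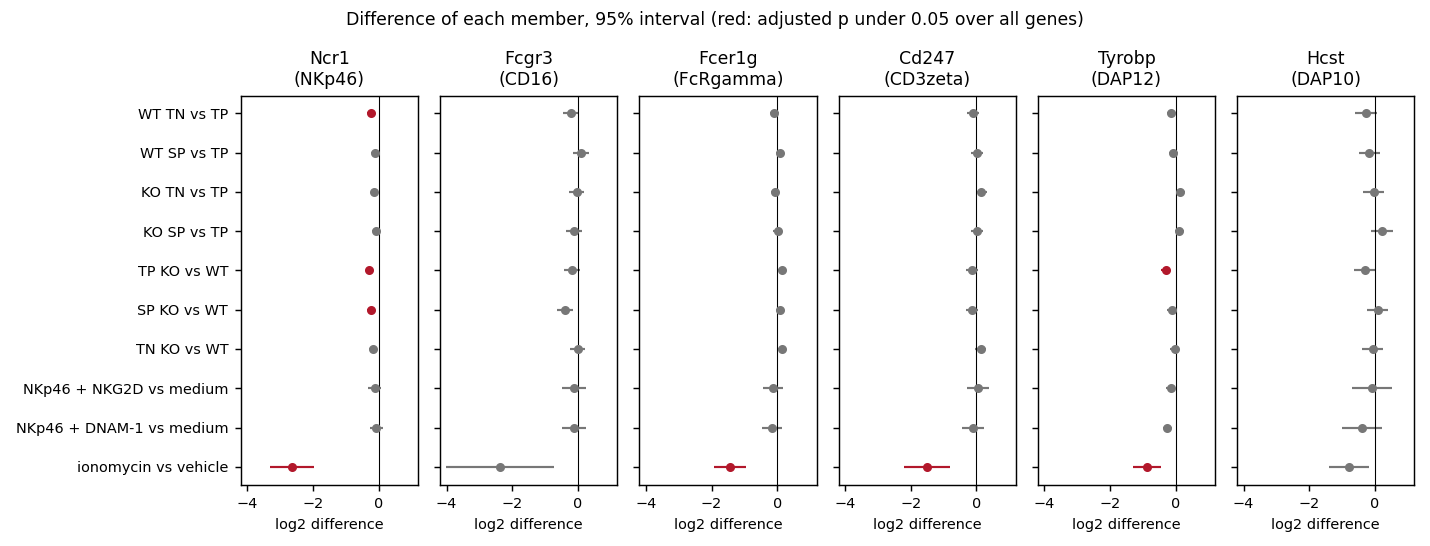
Log2(TPM + 1) difference of each member in 10 comparisons (first group minus second), with 95% intervals from limma, red where the adjusted p over all genes was under 0.05. The red points are 3 of Ncr1 and 1 of Tyrobp in the subset table and 4 with ionomycin, where the values reach -2.64.

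The antibody table allows the members to be followed after 48 h on antibodies, 1 of which binds NKp46, the product of Ncr1. The sample titles put 6 of the 9 libraries in another group than the column names do, and the values follow the columns. Of the 6 members 0 were called by limma with either antibody pair, where 0.431% (NKp46 and NKG2D) and 0.782% (NKp46 and DNAM-1) of all genes were called. At an unadjusted p under 0.05 by limma there was 1 member, Tyrobp, in each. Of the 13689 genes tested, 2069 (NKp46 and NKG2D) and 2458 (NKp46 and DNAM-1) also had such a p.

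**Figure D5:**
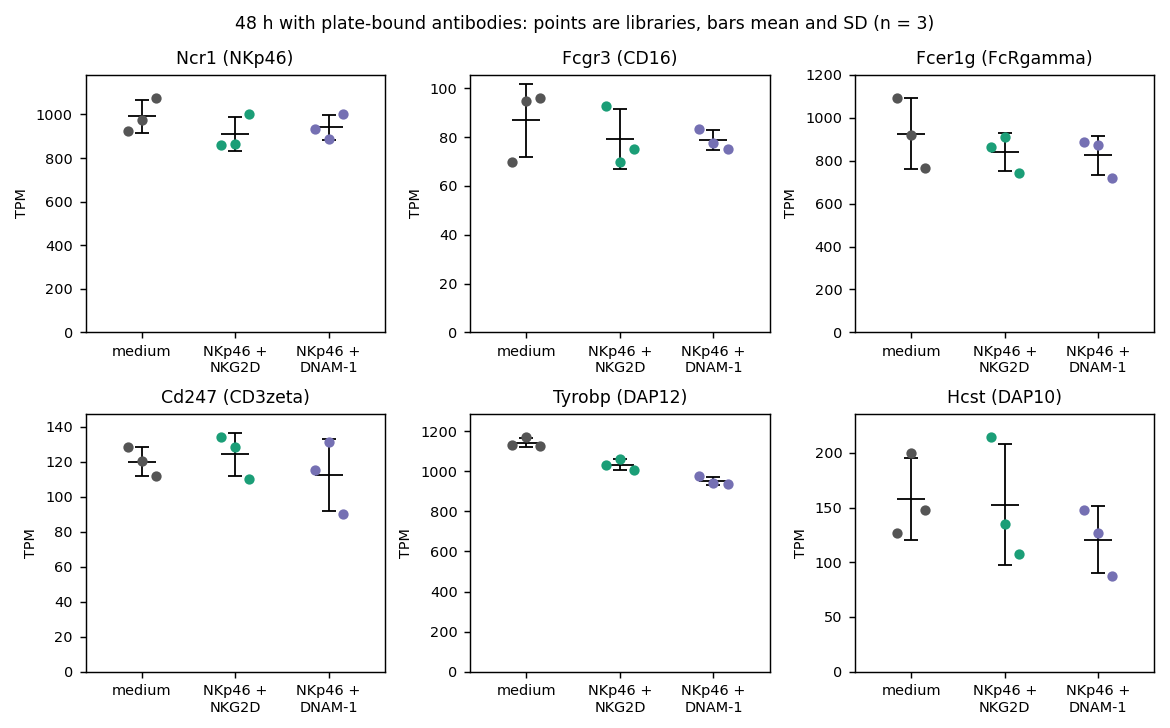
TPM of each member (linear axes from 0) in medium (grey), with antibodies to NKp46 and NKG2D (green) and to NKp46 and DNAM-1 (violet), 1 point per library and bars for mean and SD (n = 3). Tyrobp separates the 3 groups, from 1128 to 1170 TPM in medium down to 939 to 974 TPM with NKp46 and DNAM-1, and the other 5 members overlap between groups.

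Tyrobp was at 1132, 1170 and 1128 TPM in medium, at 1030, 1060 and 1008 TPM with antibodies to NKp46 and NKG2D, and at 974, 940 and 939 TPM with antibodies to NKp46 and DNAM-1. The 3 groups did not overlap. Its difference from medium was -0.15 (SE 0.061, adjusted p 0.301) with NKG2D and -0.27 (SE 0.061, 95% interval -0.40 to -0.13, adjusted p 0.0866) with DNAM-1. Non-overlapping lower groups were seen for 9.84% and 11.6% of all genes in these comparisons with medium. With the replicate number as a block, since the column names (WT1 and so on) read as 1 mouse per number, the adjusted p with DNAM-1 was 0.0358. With groups taken from the titles the differences from medium were 0.01 and -0.03. Between the antibody pairs, grouped by column, Tyrobp differed by -0.12 (DNAM-1 minus NKG2D, unadjusted p 0.0823 by limma). The share of all genes separated between those pairs is not given here.

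Ncr1 was at 926, 973 and 1076 TPM in medium, at 861, 866 and 1002 TPM with NKp46 and NKG2D antibodies and at 933, 889 and 1002 TPM with NKp46 and DNAM-1 antibodies. All 3 groups overlapped. The differences of -0.12 (95% interval -0.33 to 0.08) and -0.07 (-0.27 to 0.13) were not called, and their intervals reach from a fall of the size seen between sorted subsets to a small rise. Means of the other 4 members were 86.8 (medium), 79.2 and 78.7 TPM for Fcgr3, 927, 839 and 826 TPM for Fcer1g, 120, 124 and 112 TPM for Cd247 and 158, 152 and 120 TPM for Hcst. None of these separated from medium, and Hcst again spread widely, from 87.2 to 214 TPM over the 9 libraries. Between the antibody pairs 0 members were called by limma and 0 had an unadjusted p under 0.05 (0.0146% of all genes called, 167 genes unadjusted). Handling stress markers summed to 148 to 184 TPM in medium and 60.5 to 84.2 TPM with antibodies, and Fos and Il7r were called lower in both antibody conditions. Genes above 0 numbered 13555 to 14674 in medium and 16107 to 18096 with antibodies, without overlap. The part of these in the Tyrobp difference was not tested.

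Among the partner genes, Klrd1, which encodes the CD94 chain of the NKG2C receptor, fell by 0.35 with NKp46 and DNAM-1 antibodies, the 1 call among 9 tested coupled receptors. Differences from medium were negative for 8 of these 9 in both antibody conditions, where 54.0% (NKG2D) and 53.7% (DNAM-1) of all genes were negative. The medians of the 9 were -0.24 (NKG2D) and -0.31 (DNAM-1), against -0.04 over all genes. Both conditions share the medium libraries. Cd226, the DNAM-1 gene, fell by 1.06 with NKp46 and NKG2D antibodies, and Crtam, an adhesion receptor gene, rose by 0.76 with NKp46 and DNAM-1 antibodies. Over all genes, 0.431% (NKp46 and NKG2D) and 0.782% (NKp46 and DNAM-1) were called. Of the 18 proximal signalling genes and 10 negative regulators 0 were called by limma in either condition.

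Tumour NK cells have no comparison group in their table, and their levels are given without a test. Ncr1 was at 182, 168 and 321 TPM, Fcgr3 at 146, 114 and 138 TPM and Fcer1g at 1325, 1002 and 1038 TPM. Tyrobp was at 1302, 1134 and 961 TPM, Cd247 at 144, 149 and 117 TPM and Hcst at 156, 94.8 and 147 TPM. Within these libraries Ncr1 exceeded Fcgr3 1.25 to 2.32 times, and Fcer1g was above Ncr1 in 3 of 3. Fcer1g and Tyrobp held nearly equal shares of the adaptor mRNA, 44.4% ± 2.02 and 44.9% ± 2.60. The tables were normalized separately, so these levels cannot be compared with the splenic groups. Fibroblast markers summed to 37.9, 1023 and 833 TPM in these libraries, erythroid markers to 0, 208 and 333 TPM, macrophage and monocyte markers to 103, 44.4 and 39.9 TPM and handling stress markers to 1811, 2224 and 7975 TPM. The first tumour library had the highest macrophage sum and the lowest fibroblast, erythroid and handling stress sums. Fcgr3, Fcer1g, Tyrobp and Hcst were highest in that library, Cd247 in the second and Ncr1 in the third. T cell markers summed to 119 to 136 TPM, with Cd3e, Cd8a and Cd8b1 listed at 0, all 7 neutrophil markers were listed at 0, and the 8 NK markers summed to 9744 to 10374 TPM. The part of the other transcripts in the members' levels was not tested.

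Finally, each member's profile over the 11 groups of the 3 compared tables was set against 10138 genes, by the root mean square distance of group means of log2(TPM + 1) after centring within each table. As the ionomycin difference is the widest in these profiles, it weighs most. Nearest to Ncr1 was the other receptor, Fcgr3, at a distance of 0.0823, with no gene nearer, followed by Zbp1 (0.0825), Baiap3 (0.0879) and Icam1 (0.0995). Fcgr3 was nearest to Zbp1 (0.0820), then to Ncr1 and Fes. The place of Fcgr3 is uncertain, as its ionomycin difference of -2.37 was not called and depended on vehicle replicate 1. Without that library it was -3.23, while that of Ncr1 was -2.60, and the distances were not computed again. Zbp1 was almost as near to Ncr1. Tyrobp and Hcst were at 0.0850 from each other, with 48 genes nearer to Tyrobp and 3 nearer to Hcst, and Fcer1g and Cd247 were at 0.0958, with 23 and 18 genes nearer. The nearest gene was Dok2 (0.0345) for Fcer1g, Arhgdib (0.0545) for Cd247, Arhgef3 (0.0377) for Tyrobp and Ntng2 (0.0819) for Hcst. These distances rest on the same 33 libraries and describe likeness of profile alone.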

How the data were processed

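Per the labels' protocols, libraries were made from total RNA with the KAPA mRNA HyperPrep kit. The authors deposited TPM, a unit normalized for gene length and library total, in 4 tables. The submitters' processing notes name STAR, RSEM and GRCm39, and the annotation is not given in the sources used here. Groups came from titles, and in the antibody table from column names. Each table was analysed alone: genes averaging 1 TPM or more were fitted in limma 3.58.1 (R 4.3.3) on log2(TPM + 1) with all groups and a variance trend, and the scripts were tested on simulated data. Fold changes of low genes are understated on this scale. Ratios between members used exact permutation tests (scipy 1.17.1). Depth is unknown, so no counting error can be given.

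The members, gene lists and comparisons were chosen with earlier results of these data known. Text names all 6 members, up to 3 of the nearest profiles per member (1 item is not reported here), and at most 4 called genes per list and comparison with the largest changes (for ionomycin, Vav1 and Lat2 are added, and uncalled or marker genes beside a result were chosen after their values were seen). The 5 lists were receptors coupled to the adaptors, proximal signalling genes, negative regulators, other activating or adhesion receptors and NK transcription factors. Marker lists covered 14 cell types or states.

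Numbers in the column names of the subset and antibody tables (WT1, KO1) read as 1 mouse each. Deviations from the group mean correlated only weakly between libraries of the same number, with means of 0.010 in the subset and 0.064 in the antibody table, against -0.005 and -0.032 for other pairs.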

Additional observations from a re-analysis of the deposited data

How the results depend on the processing

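Settings were changed one at a time for every member difference, 1428 alternatives in all, and no called difference changed sign, while 52 differences called in neither fit did. With no filter on low values, without a variance trend, or with only the 2 compared groups in the fit, the count of members called was 0 between WT TN and TP cells (1 as reported), 0 for KO against WT in TP cells (2 as reported) and 0 in SP cells (1 as reported); fewer libraries in the last fit leave fewer degrees of freedom, and for the others the cause was not tested. Quantile normalization gave 0 in both genotype comparisons and 1 for KO TN against TP cells (Ncr1, -0.28, adjusted p 0.0303; 0 as reported). For ionomycin (4 as reported) there were 2 members without a filter, 2 with quantile normalization, 1 without a variance trend and 0 without both libraries numbered 3, an alternative chosen after seeing the data. Leaving out 1 library in turn gave 0 to 0 members for WT TN against TP, 0 to 1 for KO against WT TP, 0 to 1 for SP and 0 to 3 for ionomycin; in these fits the group with 2 libraries is assumed to vary like the others.

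With replicate number as a block, 1 member was called for NKp46 and DNAM-1 antibodies against medium (Tyrobp, adjusted p 0.0358; 0 as reported), and the block changed no other call of a member. By correlation over 0.1, the numbers paired 0 of 18 subset, 1 of 3 ionomycin and 1 of 9 antibody pairs. Ncr1 with ionomycin kept its call in 10 of 15 alternatives, Fcer1g in 9, Tyrobp in 5 and Cd247 in 4. Ncr1 kept it in 6 of 15 for WT TN against TP, 8 for KO TP and 6 for KO SP, and Tyrobp in 6 for KO TP. No ratio between members moved by more than 1 SD in 196 alternatives.

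TPM keep no depth, so counting error cannot be set beside the spread over 3 libraries. Fcgr3, at 15.2 TPM or less in 4 of the 6 vehicle and ionomycin libraries, is the least certain level, with Cd247 uncertain through its opposite-strand overlap.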

Other observations

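Fcgr2b, the inhibitory IgG receptor gene that shares stretches of sequence with Fcgr3, was above Fcgr3 in all 18 subset libraries. It was under Fcgr3 in all 9 antibody libraries, at 4.40 to 34.9 TPM, and in the 3 tumour libraries, at 33.0 to 50.3 TPM. In the ionomycin table Fcgr2b was at 4.51, 50.6 and 117 TPM with vehicle and 9.27, 23.0 and 25.7 TPM with ionomycin, under Fcgr3 in vehicle replicates 1 and 2 and ionomycin replicate 1 and above it in the other 3 libraries. Fcgr4 was listed at 0 in 18 of 18 subset libraries and at no more than 2.06 TPM elsewhere. Levels cannot be compared between tables.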
